A study of Mus musculus with 8 samples.

Results

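The noncoding primary microRNA loci of HL1 cells, a mouse cell line derived from atrial cardiomyocytes, were compared between the chromatin and nucleoplasm fractions of the nucleus. Their RNA was sequenced with short reads in 3 libraries per fraction and with long reads in 2 libraries of the chromatin fraction. All cells were untreated and grown in Claycomb medium with norepinephrine, and the short-read groups differed in the nuclear fraction. The long-read libraries also differed in the platform, in the kit that removed ribosomal RNA and in a poly(A) tail added to the RNA. Nuclei were extracted with urea and detergent, the supernatant was taken as nucleoplasm and the pellet as chromatin, and ribosomal RNA was depleted before library preparation. A locus was a member when its assembled short-read model lay on an autosome, overlapped on the same strand a GENCODE M21 (mm10) gene of type miRNA and no protein-coding gene, and had a value above 0 in at least 1 of the 6 libraries. The loci of Meg3, Rian, Mirg and H19 were left out. The members were thus selected on their normalized counts only in that a value above 0 was needed. Of 19649 assembled autosomal loci, 931 overlapped a microRNA gene on the same strand and 168 of these had no same-strand coding gene. After 39 loci at 0 in all 6 libraries and 1 locus of H19 were left out, 128 loci remained of 65265 rows in the table. The lowest mean among the 128 was 0.121 normalized counts over the 6 libraries, and the 39 loci just outside the threshold were all at 0.

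Most animal microRNAs begin as long RNA polymerase II transcripts called primary microRNAs, which Drosha and its partner Dgcr8 cut in the nucleus to release a short hairpin. Dicer trims the hairpin in the cytoplasm to a mature strand that guides an Argonaute protein to target messages, largely through the seed at its 5′ end. Several hairpins often share one primary transcript, and in heart and muscle the miR-1, miR-133, let-7 and miR-143/145 clusters are well known examples. Cutting of primary transcripts can take place while they are still on chromatin.

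The 128 loci held 130 annotated microRNA genes, 97 with a Mir symbol and 33 with a predicted Gm symbol. The label of primary microRNA host held for only some of them. They were divided by annotation, after their values had been seen, into 23 loci over 200 bp with a named microRNA (host loci), 73 loci of 54 to 139 bp that covered little more than a hairpin, and 32 loci over 200 bp whose only microRNA genes were predicted. The host loci spanned 388 to 288136 bp, with a median of 20563 bp. Among the 32 loci with predicted microRNA genes, 19 overlapped an annotated pseudogene and 20 held a hairpin that matched a coding transcript. Another pair, at Rn7s1 and Rn7s2, were genes of 7SL RNA, the RNA of the signal recognition particle. These loci are therefore named here by their gene symbols and not as primary microRNAs.

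Mature sequences from RefSeq (GRCm38.p6) matched 81 of the 130 microRNA genes, and those of several host loci are shown because they group the loci by shared seed. No sequence is shown for Mir143, Mir145a, Mir30d and Mir30b, whose loci are among the highest hosts. They are written 5′ to 3′ with the seed, bases 2 to 8, in capitals. The let-7 strands below shared the seed GAGGUAG and are listed for 3 of the 4 let-7 host loci.
let-7a-5p: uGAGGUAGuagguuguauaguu
let-7b-5p: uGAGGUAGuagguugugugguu
let-7c-5p: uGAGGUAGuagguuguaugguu
let-7d-5p: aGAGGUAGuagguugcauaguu
let-7f-5p: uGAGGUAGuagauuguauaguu
The strands below came from the partners of let-7 in the same primary transcripts. miR-99a and miR-100 had one seed at separate loci.
miR-99a-5p: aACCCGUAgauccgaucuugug
miR-100-5p: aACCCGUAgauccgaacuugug
miR-125b-5p: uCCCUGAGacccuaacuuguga
The remaining strands shown belong to the clusters at Dleu2, A330023F24Rik, Nr6a1os and Mir17hg.
miR-15a-5p: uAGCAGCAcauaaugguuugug
miR-16-5p: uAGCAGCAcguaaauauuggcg
miR-29b-3p: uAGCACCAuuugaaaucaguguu
miR-29c-3p: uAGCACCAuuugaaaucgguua
miR-181a-5p: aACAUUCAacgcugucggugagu
miR-181b-5p: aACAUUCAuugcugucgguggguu
miR-19b-3p: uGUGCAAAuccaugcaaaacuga
miR-92a-3p: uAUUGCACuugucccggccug

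Values are gene counts divided by the authors' size factor for each library (normalized counts), and they are not scaled for length. The libraries held 91657034 to 121773350 recovered reads each, in units of StringTie's abundance estimates that need not equal sequenced reads. The log2 fold changes below, chromatin over nucleoplasm, were fitted by limma to log2(normalized count + 1) for the 35830 rows above 0, and p-values were adjusted by Benjamini-Hochberg over all of them. The study called a transcript chromatin-enriched RNA (cheRNA) when its adjusted p was below 0.05, its change over 4 fold and its length over 200 bp. The fractionation checks separated as labelled: Malat1 and Pvt1, nuclear noncoding RNAs, were higher in chromatin by 3.82 and 3.93, and the messages of Gapdh and B2m were at -2.07 and -2.67. Of 8 atrial cardiomyocyte markers matched, all had values above 0 in every library. They ran from Nppa, between 10.4 and 113, to Ryr2, between 14020 and 177668. Myh6 and Tnnt2 had no matched row. Among leukocyte markers, Cd68 lay between 39.1 and 147, and Ptprc and Cd3e reached 4.07 and 9.37. Of the endothelial markers, Cdh5 was at 0, Pecam1 was above 0 in 2 libraries and Kdr lay between 808 and 2570. Of the skeletal muscle markers, Myod1 was at 0, Myog reached 3.05 and Acta1 lay between 445 and 1780, while Col1a1, a fibroblast collagen, lay between 101002 and 344726. The third replicate stood apart for 7 of the 8 cardiomyocyte markers, at their lowest there in both fractions, against 27.0% of rows with a mean of at least 10. The summed level of the 4 fibroblast markers, mostly Col1a1, was at its highest there. In chromatin it was 117003 against 101721 and 113644, a small margin, and in nucleoplasm 347532 against 217458 and 212564. Postn had counts only in the third nucleoplasm library.

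Of the 128 loci, 44 were higher in chromatin and 25 were lower, where 26.9% of all rows were called higher and 20.9% lower. Past 4 fold, 36 were higher and 21 lower, against 15.7% and 4.9% of all rows. Of the 55 loci with a span over 200 bp, 23 were higher and 17 lower past 4 fold. These are not the cheRNA calls of the study. The study tested counts with DESeq2, whereas limma was used here and the length limit was put on the span, introns included. All 3 chromatin libraries lay above all 3 nucleoplasm libraries at 48 loci and below them at 28, against 31.5% and 23.8% of all rows. The median log2 fold change was 0.40 over the 128 loci and 0.38 over all rows. With the 28 loci at 0 in all nucleoplasm libraries and the 5 at 0 in all chromatin libraries set to a bound at 3 counts per library, or left out where both fractions were at or under it, the median was 0.78 over 99 loci. The near-equal medians hid kinds of locus that moved in opposite directions. Of the 23 host loci, 19 were higher, 17 of them past 4 fold, and 1 was lower, with a median of 3.31. Of the 32 loci with predicted genes only, 20 were lower and 7 higher, with a median of -2.15. Of the 73 hairpin-sized loci, 18 were higher and 4 lower. For comparison, 287 of 741 loci that overlapped both a microRNA gene and a coding gene were higher, 101 of them past 4 fold, with a median of 0.22. Scaling each library to its ERCC standards moved the median of all rows from 0.38 to 0.84, and the number of loci more than 4 fold lower fell from 21 to 3.

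**Figure D1:**
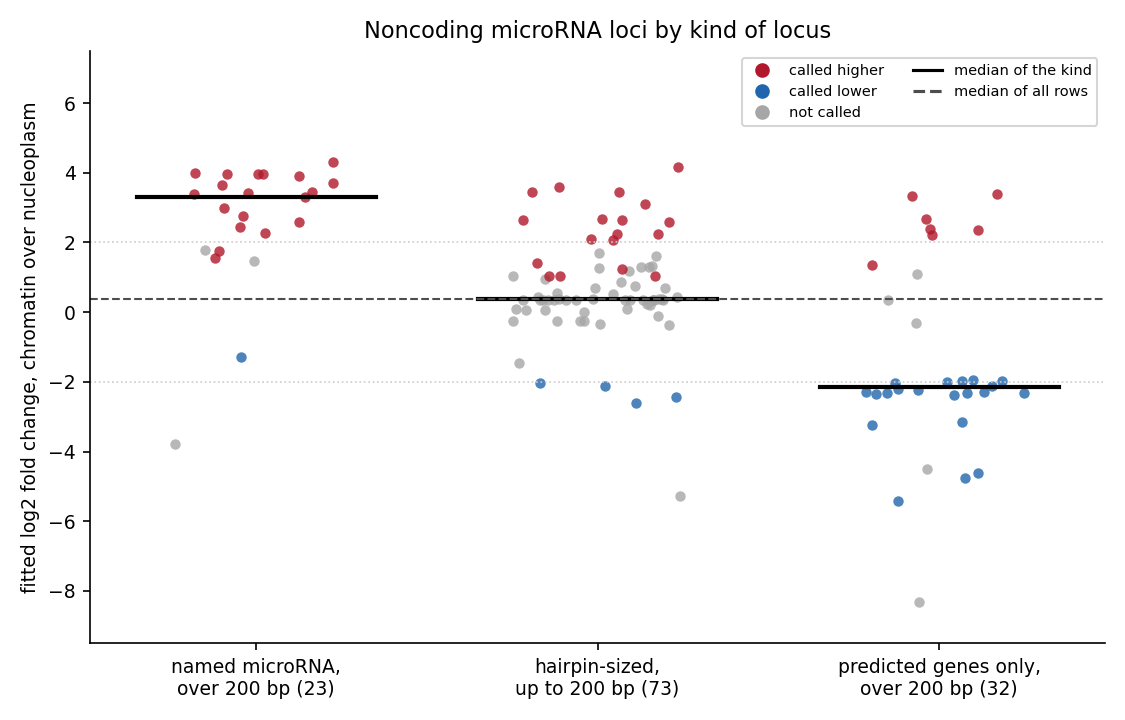
Fitted log2 fold change (y axis, chromatin over nucleoplasm) of each of the 128 loci, by kind of locus, with the called loci in red and blue, a black bar at each median and a dashed line at the median of all rows. The host loci of named microRNAs centre on 3.31 and the loci with predicted genes only on -2.15, and dotted lines mark 4 fold.

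Together the 23 host loci took 0.318% to 0.371% of each chromatin library and 0.0233% to 0.0395% of each nucleoplasm library. All 128 loci took 1.02% to 1.38% and 6.16% to 8.40%, and the 3 largest by mean, both 7SL genes and Gm24105, held 56.1% to 97.1% of the sum in each library. The summed host loci were thus lower in every nucleoplasm library than in every chromatin library, while the summed members were higher.

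The highest host loci by mean were a pair of let-7 hosts. At Mir99ahg (chr16:77329328-77600908, plus strand), the host of Mir99a and Mirlet7c-1, chromatin libraries had 90214, 75946 and 95755 normalized counts and nucleoplasm libraries had 4357, 3470 and 11502. The fractions did not overlap, although the third nucleoplasm library was more than the sum of the others, and the log2 fold change was 3.96 (SE 0.45, adjusted p = 6.50e-04). Lncppara (chr15:85668381-85710490, plus strand), the host of Mirlet7c-2 and Mirlet7b, had 89335, 89244 and 87073 in chromatin and 4056, 4346 and 5094 in nucleoplasm. Its log2 fold change of 4.31 (SE 0.11, adjusted p = 2.28e-05) was the largest among the host loci. The chromatin means of these 2 loci, 87305 ± 10220 and 88551 ± 1280 (SD, n = 3), did not differ beyond their spread.

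The other let-7 hosts held 3 hairpins each. The locus of 3110039I08Rik (chr9:41327050-41615185, plus strand), with Mir100, Mirlet7a-2 and Mir125b-1, had 41723, 38093 and 25605 in chromatin and 3043, 2528 and 2426 in nucleoplasm, a log2 fold change of 3.70 (SE 0.21, adjusted p = 4.80e-05). That of 6720427I07Rik (chr13:48531903-48546507, minus strand), with Mirlet7a-1, Mirlet7f-1 and Mirlet7d, had 4123, 3494 and 5753 in chromatin and 349, 331 and 540 in nucleoplasm, a log2 fold change of 3.46 (SE 0.26, adjusted p = 1.30e-04). In both, every chromatin library was far above every nucleoplasm library. Of 7 loci that held a microRNA of the let-7 and partner list, 7 were higher and 0 lower, and 6 passed 4 fold. By comparison, 26.9% of all rows were called higher and 15.7% past 4 fold. Only 4 of the 7 were host loci, and the rows of Mirlet7a-2 and Mir100 lay inside the 3110039I08Rik locus. The locus below 4 fold was the hairpin-sized row of Mir125b-2, with at most 2.08 normalized counts. That row was at 0 in all nucleoplasm libraries and lost its call with the replicate number as a block (adjusted p = 0.0843) and without any 1 nucleoplasm library (adjusted p = 0.0908 to 0.107).

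**Figure D2:**
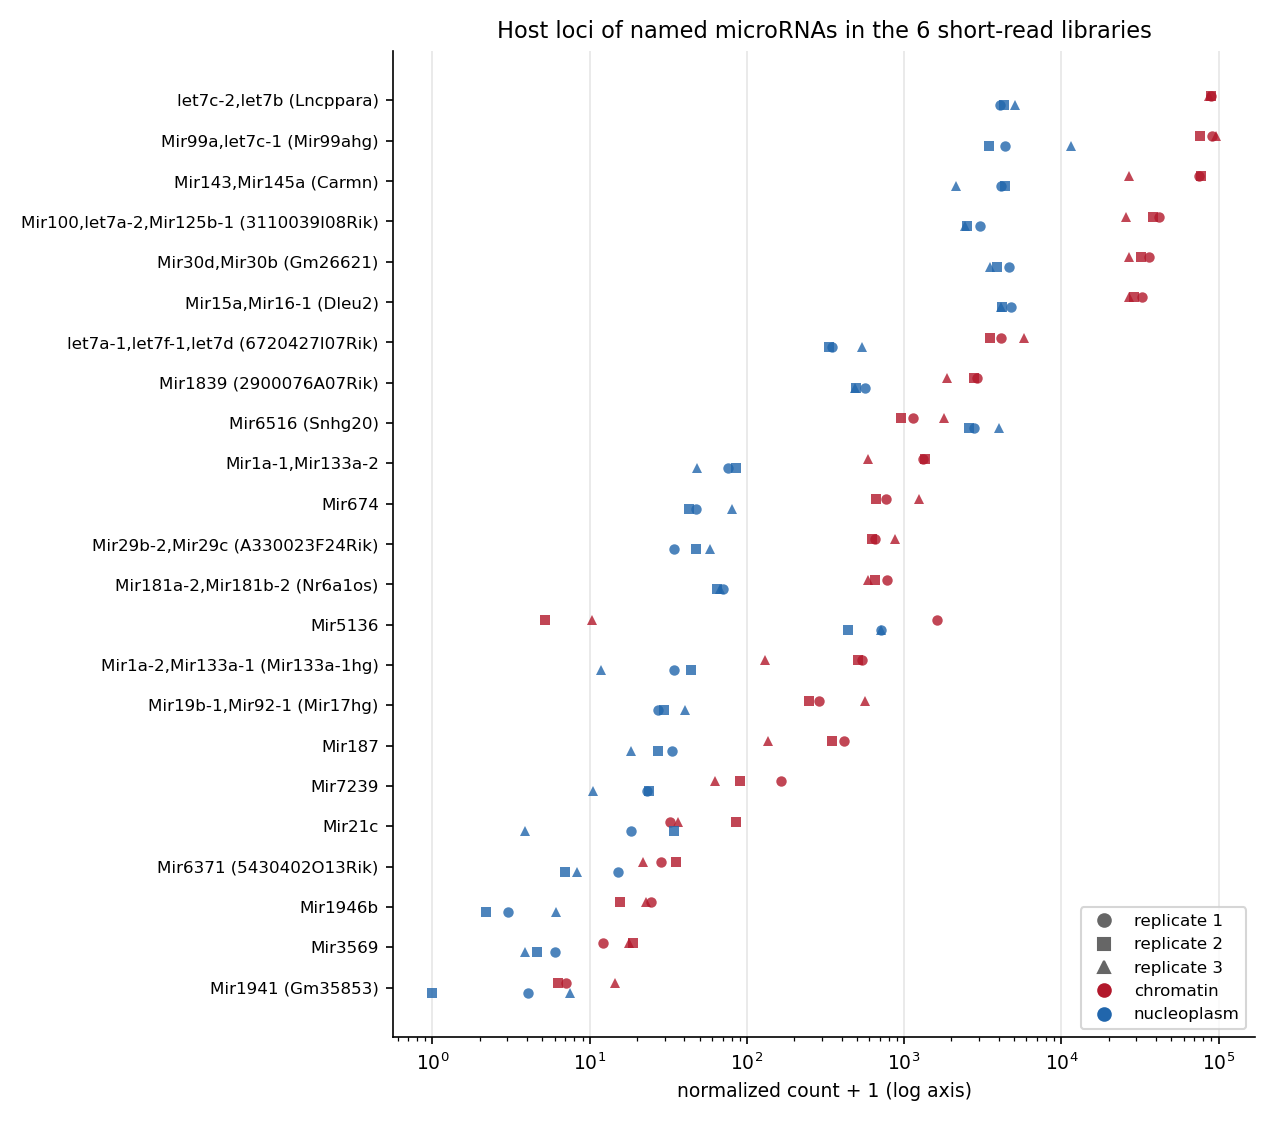
Normalized count + 1 on a log axis (x) for the 23 host loci of named microRNAs (y), in each of 3 chromatin (red) and 3 nucleoplasm (blue) libraries, with a marker shape per replicate. Brackets give an annotated noncoding gene that overlaps the locus on its strand, which need not contain the hairpin. Chromatin lies to the right except at Mir6516, which is reversed, and at Mir5136, Mir21c and Mir1941, where the fractions overlap.

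The muscle microRNAs lay at lower levels. Mir1a-1 and Mir133a-2 shared a locus of 17958 bp (chr2:180385564-180403521, plus strand) that overlapped no annotated noncoding host on its strand. It had 1318, 1356 and 588 normalized counts in chromatin and 74.8, 83.9 and 47.1 in nucleoplasm, a log2 fold change of 3.91 (SE 0.40, adjusted p = 4.10e-04). The second copy of the pair, Mir1a-2 and Mir133a-1 at Mir133a-1hg (chr18:10779736-10787804, minus strand), had 536, 511 and 130 in chromatin and 33.3, 43.1 and 10.9 in nucleoplasm. Its log2 fold change was 3.66 (SE 0.74, adjusted p = 7.56e-03). At both loci the third replicate was the lowest in each fraction, and the fractions still did not overlap. No other myomiR of the list, such as Mir206, Mir208a or Mir499, was among the members. Of the 4 myomiR loci, 2 were higher and 0 lower, where 26.9% and 20.9% of all rows were. The 2 that were higher were the host loci above, and the others were hairpin-sized rows inside them.

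Carmn (chr18:61645878-61666440, minus strand), a cardiac lncRNA known for hosting Mir143 and Mir145a, had 74723, 77449 and 26980 in chromatin and 4145, 4358 and 2139 in nucleoplasm. The log2 fold change was 3.99 (SE 0.49, adjusted p = 9.51e-04), and here too the third replicate was the lowest of each fraction. Mir187 (chr18:24426143-24467576, minus strand) had 412, 349 and 135 against 32.3, 26.4 and 17.4, and rose by 3.40 in chromatin (adjusted p = 1.73e-03).

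The other abundant clusters had the same direction. Dleu2 (chr14:61602836-61682394, minus strand), the host of Mir15a and Mir16-1, had 32601, 28901 and 26841 in chromatin and 4749, 4172 and 4125 in nucleoplasm, a log2 fold change of 2.76 (SE 0.11, adjusted p = 2.49e-05). The Mir30d and Mir30b locus (chr15:68335667-68362907, minus strand) had 36098, 32111 and 27112 against 4636, 3898 and 3493, a log2 fold change of 2.99. Both values lay below the 3.46 to 4.31 of the let-7 hosts, and that difference was not tested. A part of Mir17hg (chr14:115044305-115046728, plus strand), the host of the miR-17 to miR-92 cluster, held Mir19b-1 and Mir92-1 and had 287, 246 and 563 against 26.3, 28.8 and 39.1, a log2 fold change of 3.42. The 5′ hairpins of the same cluster had rows of their own with few counts: Mir18 had 7.12, 7.34 and 10.4 in chromatin and at most 1.01 in nucleoplasm, and Mir20a was at 0 in all nucleoplasm libraries. Mir18 and Mir20a were called higher, and Mir17 and Mir19a were not called.

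Among smaller hosts, Mir29b-2 and Mir29c at A330023F24Rik had 647, 626 and 878 in chromatin and 33.3, 46.7 and 57.3 in nucleoplasm, a log2 fold change of 3.96. Mir181a-2 and Mir181b-2 at the Nr6a1os locus had 779, 651 and 585 against 69.7, 63.5 and 66.0, a log2 fold change of 3.31. Mir674, at the very start of its locus of 3116 bp, had 763, 659 and 1237 against 46.5, 41.9 and 79.7, a log2 fold change of 3.96. All 3 were separated by fraction in every library. The 12 host loci with 2 or more microRNA genes were all past 4 fold, with a median of 3.68. Of the 11 with 1 microRNA gene, 5 were, with a median of 1.79, against 15.7% of all rows. The 2 groups also differed in level. Each of the 12 had a mean of at least 198 normalized counts, whereas Mir1941 and Mir3569 reached at most 13.5 and 17.8. The part of level in this contrast was not tested. Mir1839, whose hairpin is also annotated as a small Cajal body RNA, rose by 2.27. Mir7239 and Mir1946b rose by 2.45 and 2.59, and Mir6371 and Mir3569 by 1.55 and 1.74, below 4 fold. The call of Mir6371 was lost without the first or the second chromatin library or the second or the third nucleoplasm library (adjusted p = 0.0666 to 0.0908). Of the polycistron list, 15 loci held a member and 11 were higher and 0 lower, where 26.9% and 20.9% of all rows were. Only 4 of the 15 were host loci. The others were hairpin-sized rows, several from the same cluster or inside a host, so they are not separate transcripts. Among those called, Mir20a and Mir27a were at 0 in all nucleoplasm libraries, so they entered the members only through chromatin. Mir24-2 lost its call without the first or the second nucleoplasm library. Of the stress and p53 list, 4 of 7 were higher and 0 lower, and all 4 called loci held Mir30 or Mir181 genes. Only 2 of the 7 were host loci, and the called rows of Mir181a-2 and Mir181b-2 lay inside the Nr6a1os locus.

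The only host locus that was lower held Mir6516 inside Snhg20 (chr11:117076783-117078955, plus strand), a spliced small nucleolar RNA host gene. It also held the small Cajal body RNA gene Gm26083, which the Mir6516 hairpin matched at 100% identity. It had 1136, 951 and 1804 in chromatin and 2793, 2579 and 4027 in nucleoplasm, a log2 fold change of -1.30 (SE 0.28, adjusted p = 0.0106). With ERCC scaling the value was -0.56 and no host locus was called lower. Mir5136, in a locus that also held Snora57, had 1614, 4.19 and 9.37 in chromatin and 709, 440 and 711 in nucleoplasm. The first chromatin library exceeded every nucleoplasm library and the others fell below them all, and the locus was not called (adjusted p = 0.208). Without the first chromatin library it was called lower, with a log2 fold change of -6.37 (adjusted p = 1.002e-03). Mir21c (adjusted p = 0.153) and Mir1941 (adjusted p = 0.216) were not called either.

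Within the host loci, 13 of 37 hairpins lay in an annotated exon of a noncoding gene, 9 in an intron, 1 across an exon boundary and 14 outside any annotated noncoding gene. Mir99a and Mirlet7c-1 lay in an intron at 99.3% and 99.5% of the assembled span, with the gene model annotated beyond it, and Mirlet7c-2 and Mirlet7b in an exon at 90.8% and 92.5%. Mir143 and Mir145a lay past the annotated end of Carmn, at 83.6% and 90.2% of the assembled locus. Mir19b-1 began at the first base of its assembled locus. Hairpins were thus found at both ends of the host models.

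**Figure D3:**
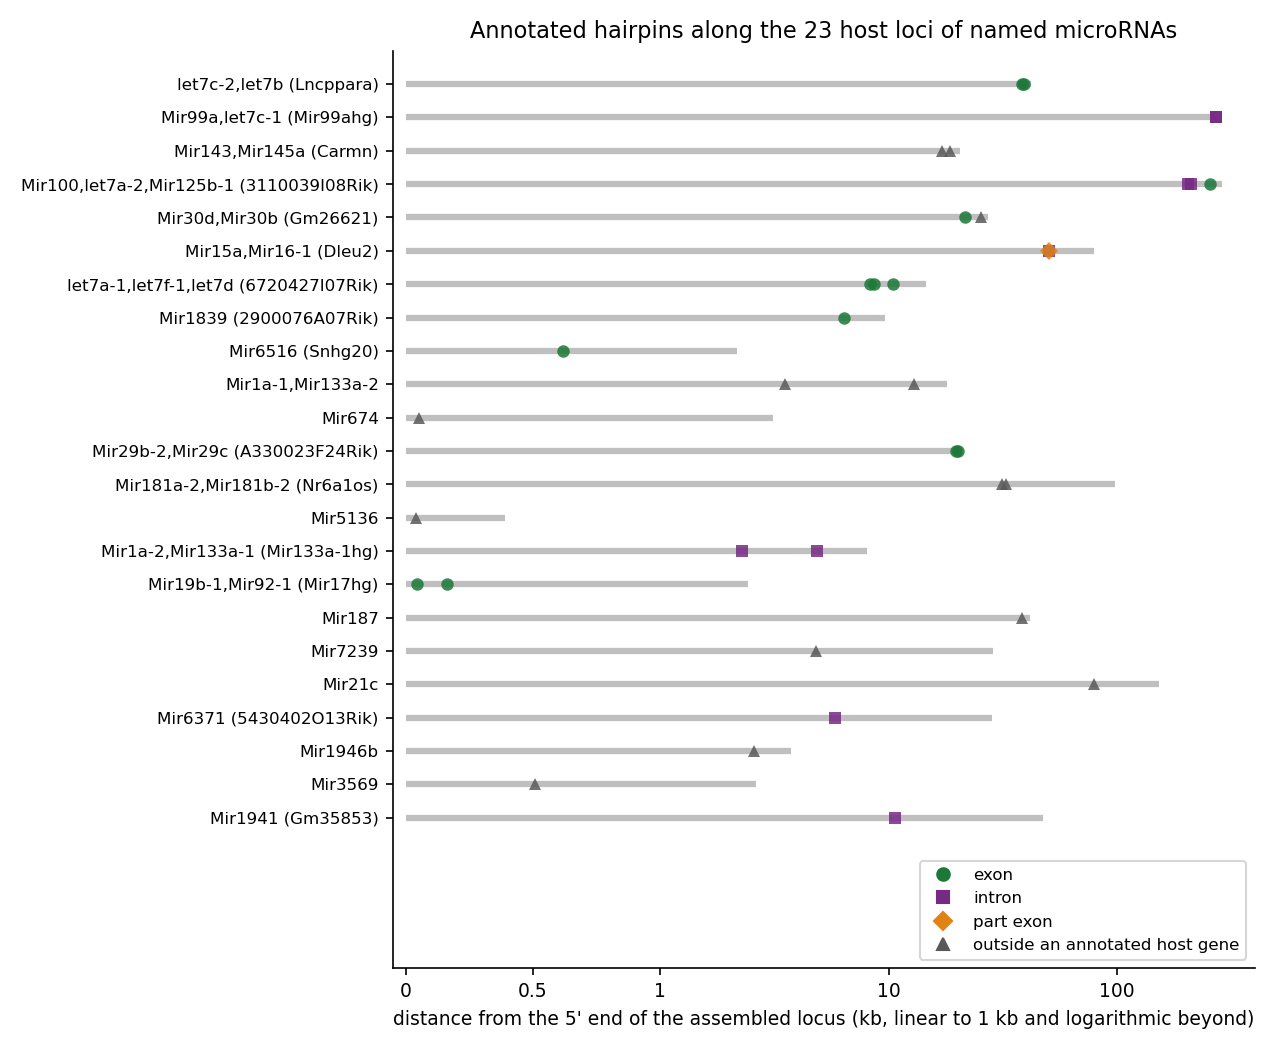
Position of each of 37 annotated hairpins (symbols by annotation) along the 23 host loci, as the distance from the 5′ end of the assembled locus in kb on an axis that is linear to 1 kb and logarithmic beyond, with grey bars for the span. The hairpins of Mir99ahg lie at over 99% of the span and those of the Mir17hg part at its start.

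Of the hairpin-sized loci, 13 lay inside a longer member, and how reads were divided between the nested models was not examined. Scaled for span, the chromatin mean of these hairpins over that of the host ran from 0.24 at Mir143 to 34.4 at Mir181b-2. Mir145a had 1609 normalized counts per kb and Carmn 2904, whereas Mirlet7a-2 had 726 and Mir100 595 per kb, inside a host with 122 per kb over a span that includes introns. The Mirlet7a-2 row itself had 74.2, 73.4 and 61.4 normalized counts in chromatin and 4.04, 1.20 and 4.35 in nucleoplasm, a log2 fold change of 4.17 (SE 0.46, adjusted p = 5.80e-04).

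Most hairpin-sized rows were near the limit of detection. Only 11 of 73 had a mean of at least 10 normalized counts, 39 had a mean under 1, 20 were above 0 in 1 library only, and 27 were at 0 in all nucleoplasm libraries. Of the 18 called higher, 7 were at 0 in all nucleoplasm libraries, so no fold change is given for them, and 13 had a mean under 10. The block left 13 of the 18. Mir27a, at 4.07, 3.14 and 10.4 in chromatin and 0 in nucleoplasm, and Mir24-2, at 4.07, 2.096 and 7.29 against at most 0.725, were called, and Mir24-2 lost its call without the first or the second nucleoplasm library (adjusted p = 0.0683 and 0.0671). Mir23a of the same cluster was not, nor were Mir451a and Mir199a-1, each above 0 in 1 library only. The means of the called rows went down to 0.518, below that of Mir23a. Where a row was not called, a difference was not detectable at this depth, and a locus at 0 may still be transcribed.

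The 4 hairpin-sized loci that fell all matched coding transcripts on the same strand at 90% identity or more over at least 80% of the hairpin. Mir703 (match to Eef1a1, a translation elongation factor) had 55.9, 62.9 and 72.9 in chromatin and 291, 322 and 438 in nucleoplasm, a log2 fold change of -2.42. Mir682 (match to the ribosomal protein gene Rpl37a) had 39.6, 49.3 and 59.3 against 250, 285 and 378, a log2 fold change of -2.60. Mir684-1 and Mir684-2 (matches to Sumo2, a ubiquitin-like protein) were at -2.11 and -2.04. The 2 strands below are shown because the whole miR-703 strand was found in 1 of 3 coding transcripts of Eef1a1, and the whole miR-682 strand in the 1 of Rpl37a.
miR-703: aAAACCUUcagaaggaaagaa
miR-682: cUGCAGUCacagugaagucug

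Loci whose predicted hairpin matched Actg1, Rpl19, Rpl37a or Ftl1 were compared with those genes. This group of coding genes was chosen after the values were seen. Of these loci, 5 matched Actg1, a cytoplasmic actin, and the largest of them (Gm22801, in the pseudogene Gm12715, chr4:103563330-103565239) had 10021, 11397 and 8883 in chromatin and 40965, 38550 and 39257 in nucleoplasm. Its log2 fold change was -1.98 (SE 0.11, adjusted p = 5.43e-05), and that of Actg1 itself was -1.92. The 6 loci that matched Rpl19, a ribosomal protein gene, had log2 fold changes of -2.24 to -2.38, and that of Rpl19 was -2.32. Rpl37a was at -2.38 and its match Gm22758 at -2.35. Ftl1, ferritin light chain, was at -1.93 and its match Gm26445 at -1.96. The ferritin matches had 95.4% to 96.3% identity to Ftl1 and 98.2% to 99.1% to its coding copy Ftl1-ps1, whose row was not analysed here.

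Some matches departed from their gene. Gm22774, a match to Ftl1, had 44.7, 275 and 65.6 in chromatin and 4738, 6706 and 2033 in nucleoplasm, and fell by 5.41 (SE 0.77, adjusted p = 1.75e-03). Gm22751, in a locus of 34798 bp that also matched Ftl1, had 12.2, 11.5 and 7.29 against 4.04, 5.99 and 2.90, a log2 fold change of 1.11 that was not called, against -1.93 at Ftl1. A locus of 115784 bp around 9330111N05Rik (with Gm25241, a match to Actg1) was higher by 2.36, at 41.7, 29.3 and 24.98 against 7.07, 4.79 and 4.35, while a model of 1903 bp over the same hairpin was at -1.97. Sumo2 itself was higher in chromatin by 0.68, against the falls of both Mir684 rows. The hairpin of Gm25640 matched transcripts of 368 genes and was compared with none, and the row of Eef1a1 was not analysed here. Reads shared between a gene and a near-identical copy can be counted at either, so the values of these loci are uncertain, and the part of the coding messages in them was not tested.

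**Figure D4:**
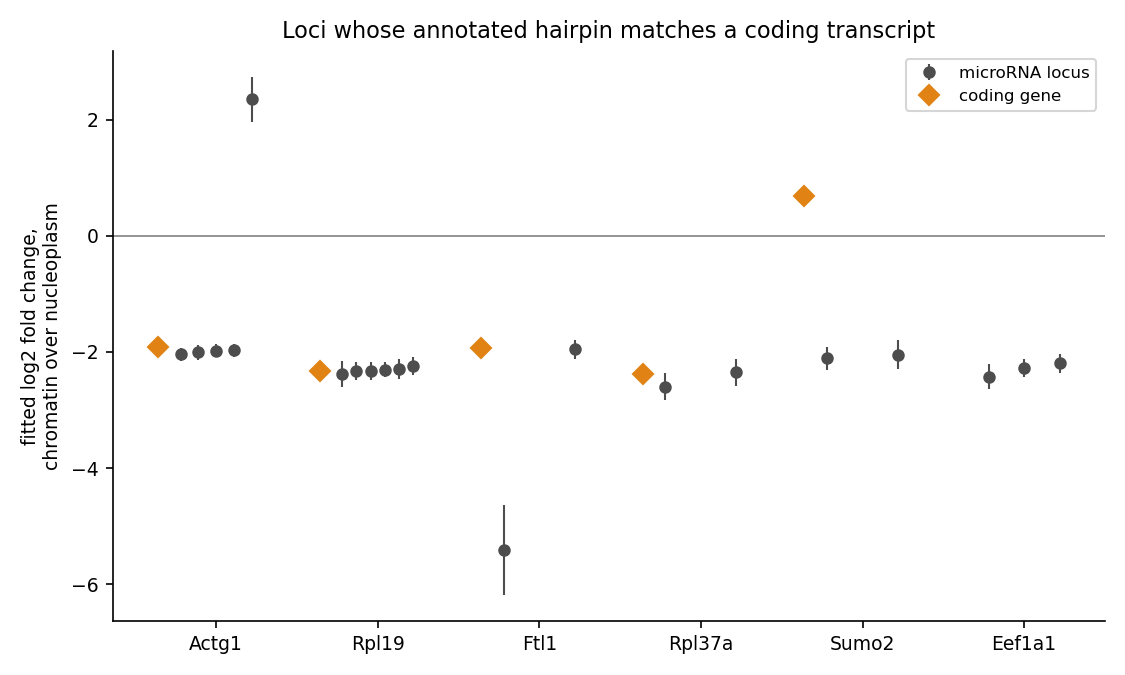
Fitted log2 fold change with SE (y axis, chromatin over nucleoplasm) of the loci with a mean of at least 10 normalized counts whose hairpin matches 1 of 6 coding genes (grey circles), beside the value of the coding gene (orange diamonds; none for Eef1a1). The 6 Rpl19 matches lie between -2.24 and -2.38, while 1 Actg1 match is above 0 and Sumo2 lies above its matches.

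The 7SL loci were the highest members. Rn7s2 (with Gm47305 and Gm47299, chr12:69361183-69361481, minus strand) had 305654, 282939 and 529060 in chromatin and 2949270, 3860180 and 3401710 in nucleoplasm. Its log2 fold change was -3.24 (SE 0.36, adjusted p = 6.12e-04) and that of Rn7s1 was -3.15 (SE 0.34, adjusted p = 5.13e-04). The 2 are near-identical and their counts cannot be separated with certainty. Gm24105 had 66429, 52457 and 0 in chromatin and 587178, 404344 and 469750 in nucleoplasm. The third chromatin library was the only one at 0, and the locus was not called (adjusted p = 0.171). Without that library the log2 fold change was -3.03 (adjusted p = 6.62e-04).

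At 4 short loci the first nucleoplasm library was far above the rest. Gm23935 had 1976, 15310 and 3056 in chromatin and 1060330, 27711 and 46013 in nucleoplasm. Gm24187 had 589, 6581 and 1238 against 388752, 12047 and 20751, and Gm25911 had 394, 4076 and 763 against 203466, 6780 and 10582. Mir6236 had 1404, 17593 and 821 against 932617, 17718 and 72184, so that at all 4 the second chromatin library was the highest of its fraction and the first nucleoplasm library the highest of all. Gm23935 and Gm24187 were called lower (adjusted p = 0.04999 and 0.0440), and Gm25911 and Mir6236 missed the threshold (adjusted p = 0.0503 and 0.0509). Neither call held with the replicate number as a block (adjusted p = 0.0934 for both) or without the first nucleoplasm library (adjusted p = 0.0549 and 0.0642). Leaving out the first or the third chromatin library or the third nucleoplasm library also ended both calls (adjusted p = 0.0653 to 0.163), as did leaving out the second chromatin library for Gm23935 (adjusted p = 0.0566). Without the second library of either fraction, Gm25911 and Mir6236 were called (adjusted p = 0.0340 to 0.0488).

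Some loci with predicted genes rose. Gm22402, in the lncRNA Gm11264 (chr4:82019371-82066176, minus strand), had 13183, 12311 and 14057 in chromatin and 1307, 1145 and 1474 in nucleoplasm, a log2 fold change of 3.34 (SE 0.12, adjusted p = 2.28e-05). Gm27299, Gm47310 and Gm25640 rose by 2.68, 2.21 and 3.39. The Gm47310 locus of 218 bp also overlapped the small RNA gene Gm22743, and its hairpin matched the small nucleolar RNA Gm22579 at 100% identity. By annotated noncoding gene, 23 of the 39 members that overlapped one were higher and 2 lower, where 26.9% and 20.9% of all rows were. Of the 89 without one, 21 were higher and 23 lower, or 23.6% and 25.8%, near the shares of all rows. The 39 were made up of 15 of the 23 host loci, 16 of the 73 hairpin-sized loci and 8 of the 32 with predicted genes. This split was thus not separate from the kind of locus.

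Replicate 3 was at the same extreme in both fractions at some host loci. In replicate 3, 9 of 21 host loci with a mean of at least 10 were at their lowest in both fractions and 6 at their highest in both, against 27.0% and 27.6% of 23858 rows at that level, so the second count was near that of all rows. The other 6, such as Lncppara (-0.04 in chromatin and 0.28 in nucleoplasm), were at neither extreme in both. At Mir133a-1hg, replicate 3 lay below the mean of the others on the log2 scale, at -2.0 in chromatin and -1.73 in nucleoplasm. At Carmn it was -1.50 and -0.99, and at the Mir1a-1 locus -1.18 and -0.74. The Mir17hg part was higher in replicate 3 by 1.08 and 0.49, and Mir99ahg by 0.20 and 1.56. Beside these, the cardiomyocyte markers Myl4 and Nkx2-5 stood at -1.89 and -1.47 in chromatin, and Gata4 at 0.07. The part of the culture's cell state in these differences was not tested, and in bulk libraries fewer cells of a type and less RNA per cell cannot be told apart. The fold changes moved with these libraries. Carmn was at 4.49 without the third chromatin library and at 3.66 without the third nucleoplasm library, and Mir133a-1hg at 4.32 and 3.08. Both stayed called without any 1 library (adjusted p at most 8.03e-03 and 0.0384).

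**Figure D5:**
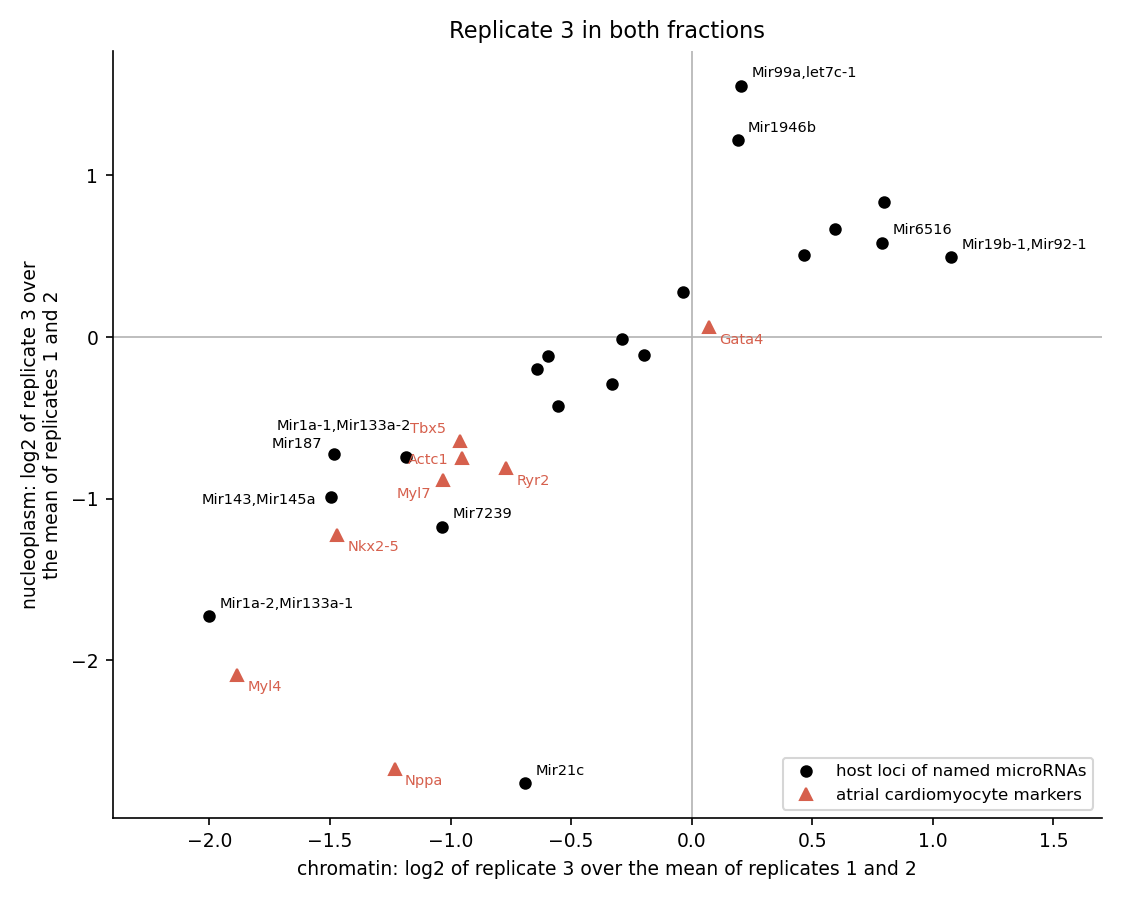
Log2 of replicate 3 over the mean of replicates 1 and 2, in chromatin (x) and nucleoplasm (y), for host loci with a mean of at least 10 normalized counts other than Mir5136 (black) and for 8 atrial cardiomyocyte markers (red). Mir133a-1hg (-2.0 and -1.73) and Carmn (-1.50 and -0.99) lie on the same side as Myl4 and Nkx2-5, and the Mir17hg part lies opposite.

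Long reads of the chromatin fraction gave TPM, a transcript abundance that is scaled for length and for the total of each library. A same-strand transcript above 0 TPM overlapped 87 of the 128 members, against 83.8% of 18764 assembled autosomal loci above 0 in short reads, and 67 had one above 0 in both libraries, against 75.6%. It was found at 21 of 23 host loci, 47 of 73 hairpin-sized loci and 19 of 32 with predicted genes. The long-read assembly was not stranded, and on either strand 114 of the 128 were overlapped. Summed over the overlapping transcripts, Mir99ahg had 109 and 98.6 TPM in the 2 libraries and the Mir100 host 88.9 and 83.7. Dleu2 had 37.7 and 62.2, Carmn 31.8 and 31.5, and Lncppara 30.0 and 22.5, so the order differed from that of the short-read counts, which are not scaled for length. The Mir1a-1 locus had 8.21 and 3.11 TPM, and Mir133a-1hg 12.0 and 10.5. At Mir133a-1hg, 9.49 and 6.20 TPM came from a transcript of 29275 bp, longer than the locus. Transcripts lying mostly inside gave 2.54 and 4.25 TPM there, and 5.01 and 2.72 at the Mir1a-1 locus. Opposite-strand sums exceeded these same-strand sums at Mir133a-1hg (31.7 and 34.5) and the Mir100 host (91.4 and 100). They were lower at Mir99ahg (30.0 and 59.6), Dleu2, Carmn, Lncppara and the Mir1a-1 locus. The 7SL loci had 1591 and 637 TPM at Rn7s1. At Mir1946b and Mir1941 no same-strand transcript was above 0.

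The genes that process these RNAs were compared as context. Of 32 listed microRNA processing genes, 28 had a row with a value above 0, and 10 were higher and 7 lower in chromatin, where 26.9% and 20.9% of all rows were. Dgcr8, Dicer1, Ago3 and Tnrc6c were higher, the last by 1.86, and Drosha and Xpo5 were at -0.80 and -0.59. Ran, the GTPase of nuclear export, fell by 2.11 and was the only one past 4 fold. With ERCC scaling the counts became 17 higher and 3 lower, with Drosha at -0.06 and Xpo5 turned to 0.15. Lin28a, a let-7 inhibitor, was at 0 in all libraries.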

How the data were processed

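RNA of the chromatin and nucleoplasm fractions of HL1 cells was measured with short reads in 3 libraries per fraction, each with 100 ng of input RNA and a read length of 50 bp, in stranded libraries from 3 cultures. Chromatin RNA was also measured with long reads in 2 libraries. Samples were grouped by their titles, because another label calls the RNA of the nucleoplasm libraries chromatin as well.

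For short reads, the authors aligned to mm10 with HISAT2 (2.1.0 in the submitters' processing notes), assembled with StringTie, counted genes and deposited counts divided by DESeq2 size factors, so the values are a signal in normalized counts. The long-read values are TPM that the authors computed with StringTie over a merged assembly and deposited. All 6 short-read columns held whole multiples of 1 unit to within 0.001 (100% of values). Those units, called recovered reads here (91657034 to 121773350 per library), served only the edgeR and DESeq2 alternatives. The authors derived them from StringTie's estimates of abundance, so they need not equal sequenced reads. The 3 libraries per fraction limit the precision.

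The fractions were compared with limma 3.58.1 (R 4.3.3, with a trend) on log2(value + 1) over the 35830 rows not at 0 throughout. P-values were adjusted by Benjamini-Hochberg. The fit was tested on simulated data in which only rows with a mean of at least 10 recovered reads were changed. That test cannot speak for rows of lower level, where most hairpin-sized loci lie. Alternatives used edgeR 4.0.16, DESeq2 1.42.0, pseudocounts of 0.1 and 10, a minimum mean of 10, ERCC and quantile scaling, limma's treat, a replicate block and the removal of each library. Same-numbered libraries of both fractions, numbered in the titles, deviated together (r = 0.102 to 0.249 over 23911 rows, against -0.158 to 0.0631 for other pairs). The numbers were therefore taken to pair the samples. The main fit did not use this pairing, so SE and adjusted p values are unpaired unless the replicate block is named. Copies were found with blastn 2.17.0 (at least 90% identity over 80% of the hairpin). Symbols of the listed genes came from the annotated gene that shares at least 0.5 of the joint span, and genes not matched so were not analysed here.

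The members and lists were chosen with earlier results of these data known. Values are given for loci with a listed microRNA, the 20 highest loci, the 5 largest rises and 5 largest falls among called loci with a mean of at least 10, loci with 3 or more microRNA genes, and the fraction checks. Other loci named (with Mir187, Mir1839, Mir5136, Mir6516, Mir7239, Mir21c, Mir1941, Mir1946b, Mir6371, Mir3569, Mir682, Mir684 and the smaller Gm loci) and the division into 3 kinds were chosen after their values were seen. P-values measure the spread between these cultures of 1 cell line.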

Additional observations from a re-analysis of the deposited data

How the results depend on the processing

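Of the 44 loci higher and 25 lower, 28 were higher when a mean of at least 10 was required, 27 with quantile scaling, 27 with the replicate block in edgeR, and 14 higher and 1 lower with treat, which tests the 4 fold change itself. Past 4 fold, 36 higher became 22 with a pseudocount of 10, 23 with quantile scaling and 14 with treat, and 21 lower became 3 with ERCC scaling and 1 with treat. Leaving out each library gave 35 to 47 higher and 23 to 27 lower, and 32 to 36 higher and 18 to 25 lower past 4 fold. The block in limma gave 39 and 23, ending the calls of Gm23935, Gm24187 and 5 hairpin-sized loci, and it changed no other call of a member. The median of 0.40 became 1.26 and 0.058 with pseudocounts of 0.1 and 10, 1.89 in edgeR, 1.69 in edgeR with the block, 1.07 in DESeq2, 0.71 with ERCC and 0.0064 with quantile scaling, and 0.34 to 0.64 without a library. It turned to -0.34 among loci with a mean of at least 10.

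For host loci, 19 higher and 17 past 4 fold became 10 and 10 with treat, and 1 lower became 0 with ERCC scaling or treat. Leaving out a library gave 18 to 19 higher, 1 to 2 lower and 0 to 1 past 4 fold lower. For hairpin-sized loci, 18 higher became 5 with a mean of at least 10, 9 in edgeR, 6 in DESeq2, 8 with quantile scaling, 5 with the block in edgeR and 3 with treat, and 11 to 22 without a library. Past 4 fold, 13 higher became 3 with a pseudocount of 10, 5 with a mean of at least 10, 6 in DESeq2, 4 with quantile scaling, 5 with the block in edgeR and 3 with treat. The 4 lower became 0 with treat, and past 4 fold 2 with a pseudocount of 10 and 0 with ERCC scaling or treat. For predicted loci, 7 higher became 4 with quantile scaling and 1 with treat, 20 lower became 1 with treat, and past 4 fold 6 higher became 1 with treat and 17 lower became 3 with ERCC scaling and 1 with treat. Processing genes went from 10 higher and 7 lower to 17 and 3 with ERCC scaling, where 2 were past 4 fold higher and 0 lower, and to 0 and 0 with treat, with 0 past 4 fold lower. With quantile scaling the hairpin rows of Mir133a-1 and Mir181a-1 turned from 1.18 to -0.0153 and from 0.25 to -1.22. The cause of these changes was not tested. The number of host loci higher was 15 with quantile scaling, 17 with the block in edgeR and 18 to 20 under the other settings apart from treat.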
